A study of Mus musculus with 16 samples.

Results

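Glycolysis splits glucose into pyruvate, and in fast skeletal muscle it can supply ATP for contraction without oxygen. The transcripts of 10 enzymes of this pathway were followed in mouse quadriceps muscle, a large thigh muscle. They were hexokinase 2 (Hk2), glucose-6-phosphate isomerase (Gpi1), muscle phosphofructokinase (Pfkm), aldolase A (Aldoa), triosephosphate isomerase (Tpi1), glyceraldehyde-3-phosphate dehydrogenase (Gapdh), phosphoglycerate kinase 1 (Pgk1), muscle phosphoglycerate mutase (Pgam2), the muscle enolase (Eno3) and lactate dehydrogenase A (Ldha). The genes were chosen by name, as the isoforms that skeletal muscle is known to use, though earlier results of these data were at hand. All 10 were present among the 24354 rows of each table of gene values.

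RNA-seq libraries came from male mice aged 4 months on a C57BL/6 background, fed normal chow. The 4 groups were HDAC3-KO after exercise, wild type after exercise, HDAC3-KO at rest and wild type at rest, with 3 libraries each. HDAC3 is a histone deacetylase that works in the NCoR and SMRT corepressor complexes. Exercise was treadmill running in 3 bouts of 1 h at 10 m/min, with 1 h of rest between bouts, and muscle was taken 2 h after the last bout. The promoter or cell type that drove the deletion and the number of animals behind the libraries are not stated in the labels. The labels also did not say that libraries of a group came from separate animals, so the p-values measure only the spread between these samples, which may be technical.

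Values were FPKM, fragment numbers scaled by transcript length and library size, so levels of different genes can be compared per length. FPKM summed to between 454359 and 522584 per library, and low values spaced in steps of whole reads put the relative depths of the 12 libraries within 1.61-fold of each other. The targeted gene followed the labels, with Hdac3 at 5.32, 6.37 and 4.13 FPKM in knockout libraries after exercise, against 31.0, 32.0 and 27.6 FPKM in wild type, and at 5.51, 6.29 and 8.16 FPKM in knockout libraries at rest, against 33.3, 31.0 and 23.7 FPKM in wild type. Skeletal muscle markers were abundant, with the 5 genes Acta1, Ckm, Des, Mb and Tnnt3 summing to between 34313 and 51779 FPKM. Of these, Des, which encodes the intermediate filament desmin, passed both tests given next as higher in knockout muscle, with log2 differences of 0.75 after exercise (limma adjusted p of 0.0379) and 0.96 at rest (limma adjusted p of 0.0271); its call held in 0 of 6 fits without 1 library after exercise and in 1 of 6 at rest. Neither test called the other muscle markers. After exercise their log2 differences were -0.25 for Acta1, -0.54 for Ckm, 0.26 for Mb and -0.31 for Tnnt3. At rest these were 0.05, -0.01, 0.46 and 0.04. The sum of the 5 genes was 34313 to 43853 FPKM in knockout libraries after exercise, against 38454 to 51779 FPKM in wild type. For resting muscle it was 35276 to 44031 FPKM in knockout libraries, against 34440 to 45517 FPKM in wild type. The heart markers Myh6, Nppa and Tnni3 summed to at most 0.839 FPKM. A pair of libraries stood apart for the neutrophil genes S100a8 and S100a9, at 156 and 148 FPKM in knockout library 3 after exercise and 239.5 and 222 FPKM in wild-type library 2 at rest, where no other library exceeded 6.41 FPKM for either gene. Genes were tested within each condition with limma on log2(FPKM + 1), and beside it stands the q-value of the authors' deposited table. The words rose and fell are kept for genes where limma's Benjamini-Hochberg adjusted p and the authors' q were both at or under 0.05 in the same direction, as they were for Hdac3 in both conditions.

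None of the 10 enzyme genes passed both tests in either condition. Hk2, the enzyme that traps glucose in the fibre by phosphorylation, averaged 2.13 times the wild-type level in knockout muscle after exercise and 1.48 times at rest. Gpi1, the next enzyme, averaged 1.17 times the wild-type level in knockout muscle after exercise and 1.37 times at rest. The other 8 enzymes averaged between 0.822 and 1.07 times wild type after exercise and between 0.969 and 1.17 times at rest.

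After exercise, limma called 0 of the 10 at an adjusted p of 0.05, with 1 under an unadjusted p of 0.05, and the authors' deposited table called 1, Hk2, as higher. Over all 9037 genes tested after exercise, limma called 3.73% and the authors' test 9.57%, split into 4.66% higher and 4.91% lower in knockout muscle, and 19.9% had an unadjusted p of at most 0.05. At rest, limma again called 0 of the 10, with 2 under the unadjusted threshold, and the authors' table called 2, Hk2 and Gpi1, both higher. Among the 9204 genes tested at rest these shares were 4.72% by limma, 10.8% by the authors' table (5.9% higher and 4.94% lower) and 21.5% at the unadjusted threshold. With 10 genes, the count of 1 after exercise stands beside the authors' share of 9.57%. The count of 2 at rest stands beside 10.8%, or 5.9% for higher alone. With counts this small, an excess over these shares was not tested.

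On the log2 scale the median difference of the 10, knockout minus wild type, was 0.03 after exercise, beside -0.00 over all tested genes, with 5 positive and 5 negative. At rest the median of the 10 was 0.14, beside 0.01 over all tested genes, with 8 positive and 2 negative. Rescaling each library to a fixed FPKM total left 8 positive at rest and gave 7 after exercise. That rescaling also moved the median over all tested genes, to 0.09 after exercise and -0.03 at rest. The median of the 10 was then 0.13 after exercise and 0.10 at rest.

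**Figure D1:**
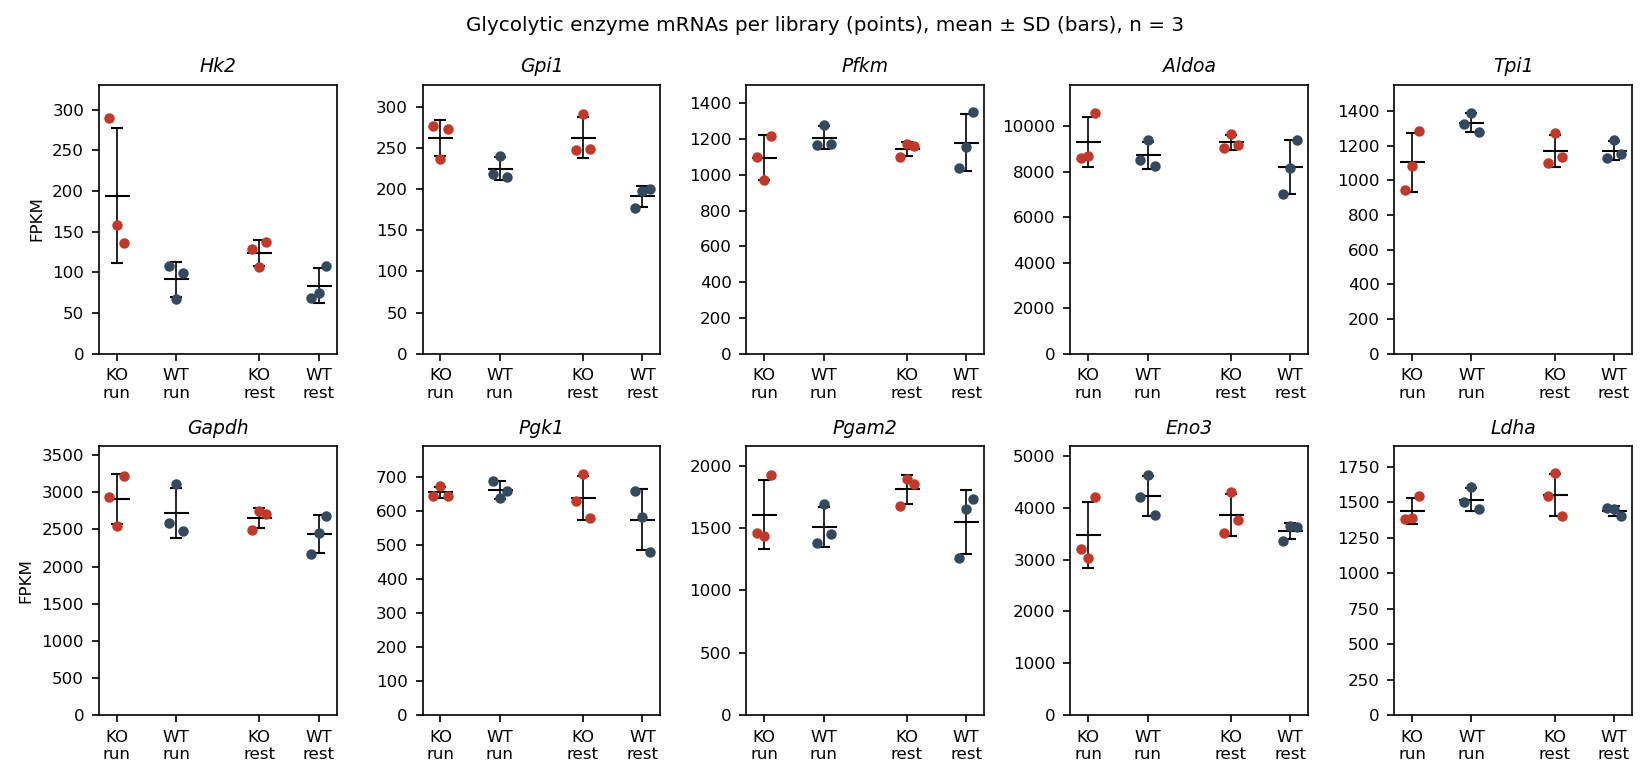
FPKM of the 10 enzyme genes in each library (points), with the mean and SD of 3 libraries (bars), for knockout (KO, red) and wild type (WT, blue) after running and at rest; each axis starts at 0 and has its own range. For Hk2 after running and Gpi1 at rest all 3 knockout points lie above all 3 wild-type points, and the groups of the other genes overlap in both conditions.

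Hexokinase 2 opens the pathway and is the hexokinase that insulin and contraction are known to induce in muscle. After exercise Hk2 had 289, 158 and 135 FPKM in knockout libraries, against 108, 66.6 and 98.9 FPKM in wild type. Every knockout library lay above every wild-type library, and knockout library 1 stood far above the other two. Complete separation with knockout above was seen for 12.4% of all tested genes after exercise. The log2 difference was 1.03 ± 0.29 (SE, n = 3 each; 95% interval 0.35 to 1.71), with a limma adjusted p of 0.108 and a q of 0.00132 in the authors' deposited table. Without knockout library 1 the log2 difference was 0.70, with a limma adjusted p of 0.171. Without library 3 of the same group, the one with high S100a8 and S100a9, it was 1.25 with a limma adjusted p of 0.0958. Over all fits that left out a library, the limma adjusted p lay between 0.0958 and 0.260.

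At rest Hk2 had 128, 106 and 137 FPKM in knockout libraries, against 67.8, 74.7 and 108 FPKM in wild type. The groups overlapped, because wild-type library 3 lay above knockout library 2. The log2 difference at rest was 0.58 ± 0.19 (SE, n = 3 each; 95% interval 0.14 to 1.02), with a limma adjusted p of 0.130 and a q of 0.00668 in the authors' deposited table. Leaving out wild-type library 3 raised the difference to 0.78 with a limma adjusted p of 0.0394, and leaving out wild-type library 2, with high S100a8 and S100a9, gave 0.52 with a limma adjusted p of 0.335.

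Glucose-6-phosphate isomerase, encoded by Gpi1, turns glucose-6-phosphate into fructose-6-phosphate. After exercise Gpi1 had 278, 238 and 274 FPKM in knockout libraries, against 219, 241 and 215 FPKM in wild type. Knockout library 2 fell within the wild-type range, and the log2 difference of 0.22 ± 0.11 (SE, n = 3 each) had a limma adjusted p of 0.325 and a q of 0.527 in the authors' deposited table. At rest Gpi1 had 248, 292 and 249 FPKM in knockout libraries, against 177, 198 and 200.05 FPKM in wild type. All 3 knockout libraries lay above the wild-type ones, as they did for 15.6% of all genes tested at rest. The log2 difference at rest was 0.45 ± 0.11 (SE, n = 3 each; 95% interval 0.20 to 0.71), with a limma adjusted p of 0.0620 and a q of 0.0310 in the authors' deposited table. Leaving out any 1 of the 6 resting libraries gave limma adjusted p between 0.0830 and 0.179 for Gpi1.

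Phosphofructokinase commits sugar to glycolysis and is the classical regulated step. After exercise Pfkm had 1099.5, 971 and 1220.2 FPKM in knockout libraries, against 1166, 1281 and 1175 FPKM in wild type. At rest it had 1101, 1173 and 1159 FPKM in knockout libraries, against 1036, 1157 and 1350.2 FPKM in wild type. Both pairs of groups overlapped. The log2 differences for Pfkm were -0.14 after exercise (95% interval -0.43 to 0.14) and -0.04 at rest (-0.33 to 0.25).

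Aldolase A cleaves the doubly phosphorylated sugar into triose phosphates. After exercise Aldoa had 8614, 8700.2 and 10574 FPKM in knockout libraries, against 8488, 9383 and 8256 FPKM in wild type. At rest it had 9030, 9647 and 9161 FPKM in knockout libraries, against 7027, 8168 and 9392 FPKM in wild type. The wild-type libraries at rest spread widely enough to include all but the highest knockout library. The log2 differences for Aldoa were 0.09 after exercise (95% interval -0.22 to 0.40) and 0.19 at rest (-0.15 to 0.52).

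Triosephosphate isomerase interconverts the triose phosphates. After exercise Tpi1 had 944, 1085 and 1283 FPKM in knockout libraries, against 1326, 1389 and 1278 FPKM in wild type. Knockout libraries 1 and 2 were below all wild-type libraries and library 3 was not. The log2 difference for Tpi1 after exercise was -0.28 ± 0.14 (SE, n = 3 each; 95% interval -0.59 to 0.03), with a limma adjusted p of 0.300 and a q of 0.463 in the authors' deposited table. At rest Tpi1 had 1098, 1272 and 1135 FPKM in knockout libraries, against 1129, 1230.2 and 1154 FPKM in wild type, and the log2 difference was -0.00 (95% interval -0.25 to 0.25).

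Gapdh makes the first NADH of the pathway and Pgk1 the first ATP of its payoff phase. After exercise Gapdh had 2937, 2553 and 3225 FPKM in knockout libraries, against 2586, 3109 and 2479 FPKM in wild type. At rest Gapdh had 2499, 2747 and 2707 FPKM in knockout libraries, against 2172, 2450.0 and 2687 FPKM in wild type. Its groups overlapped in both conditions, with log2 differences of 0.09 after exercise (95% interval -0.24 to 0.42) and 0.13 at rest (-0.16 to 0.41). Gapdh is often used as a loading reference. After exercise Pgk1 had 644, 673 and 644 FPKM in knockout libraries, against 689, 637 and 658 FPKM in wild type. At rest Pgk1 had 629.9, 707 and 578 FPKM in knockout libraries, against 659, 582 and 479.6 FPKM in wild type. Pgk1 was the tightest of the 10 after exercise, and its log2 differences were -0.02 there (95% interval -0.25 to 0.22) and 0.16 at rest (-0.18 to 0.50). Gapdh and several other glycolytic genes have processed pseudogenes in the mouse genome, and how reads shared with such copies were assigned is not recorded in the labels or tables.

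Pgam2 and Eno3 are muscle isoforms that carry the chain from 3-phosphoglycerate to phosphoenolpyruvate. After exercise Pgam2 had 1457, 1437 and 1925 FPKM in knockout libraries, against 1377, 1692 and 1455 FPKM in wild type. At rest Pgam2 had 1674, 1897 and 1857 FPKM in knockout libraries, against 1259.8, 1653 and 1736 FPKM in wild type. The Pgam2 groups overlapped in both conditions, with log2 differences of 0.08 after exercise (95% interval -0.27 to 0.44) and 0.23 at rest (-0.11 to 0.58). After exercise Eno3 had 3211, 3024 and 4206 FPKM in knockout libraries, against 4202, 4633 and 3866 FPKM in wild type. Knockout libraries 1 and 2 were below all 3 wild-type libraries, while knockout library 3 lay among them. The log2 difference for Eno3 after exercise was -0.29 ± 0.16 (SE, n = 3 each; 95% interval -0.65 to 0.07), with a limma adjusted p of 0.340 and a q of 0.523 in the authors' deposited table. At rest Eno3 had 3508, 4303 and 3767 FPKM in knockout libraries, against 3367, 3649 and 3627 FPKM in wild type, a log2 difference of 0.12 (95% interval -0.17 to 0.40).

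Lactate dehydrogenase A turns pyruvate into lactate and regenerates the NAD+ that Gapdh consumes. After exercise Ldha had 1385, 1388 and 1545 FPKM in knockout libraries, against 1501, 1606 and 1453 FPKM in wild type. At rest Ldha had 1543, 1707 and 1407 FPKM in knockout libraries, against 1462, 1454 and 1401 FPKM in wild type. The groups overlapped in both conditions, and the log2 differences were -0.08 after exercise (95% interval -0.33 to 0.17) and 0.11 at rest (-0.16 to 0.37).

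**Figure D2:**
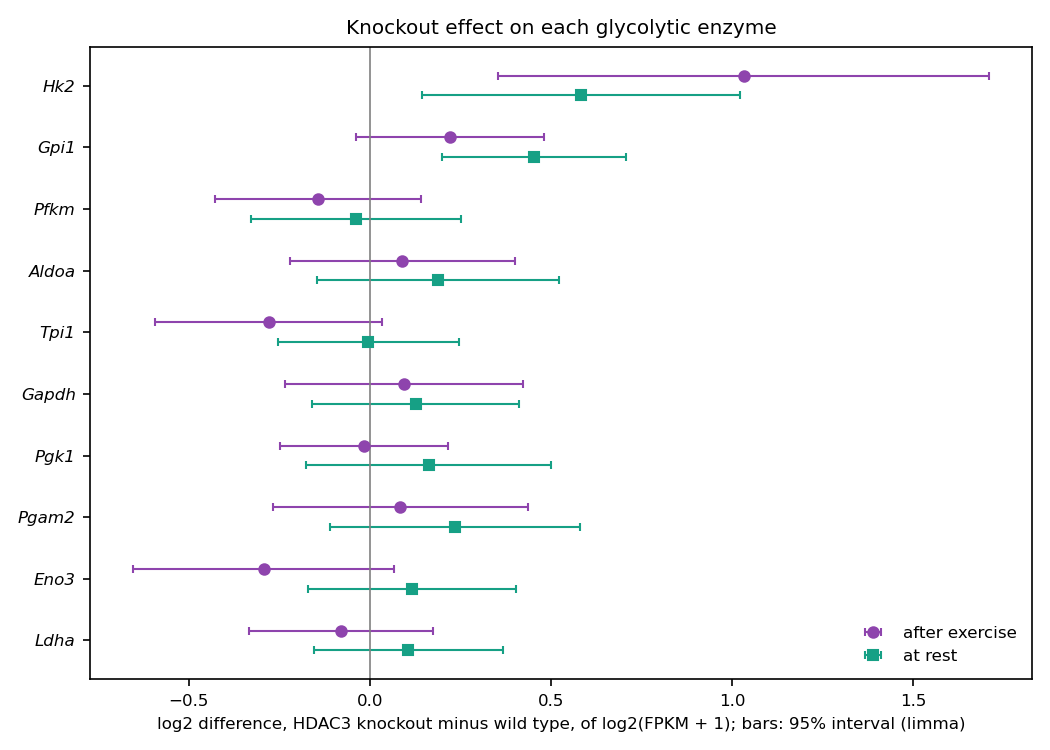
Log2 difference of each enzyme gene, knockout minus wild type on log2(FPKM + 1), with 95% intervals from limma, after exercise and at rest. The intervals of Hk2 lie above 0 in both conditions (0.35 to 1.71 after exercise and 0.14 to 1.02 at rest), that of Gpi1 does so at rest (0.20 to 0.71), and the intervals of the other 8 genes include 0; these intervals are not adjusted for the number of genes tested.

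The knockout differences after exercise and at rest were also set against each other in a contrast over all 12 libraries. limma called 0 of 8854 genes in this contrast, which is 0% of those tested, with 433 genes (4.89%) under an unadjusted p of 0.05. For Hk2 the difference between the effects was 0.45 ± 0.39 on the log2 scale (SE, 3 libraries a group) and limma's adjusted p was 0.923. For Eno3 it was -0.41 ± 0.20, with an unadjusted limma p of 0.0600 and an adjusted p of 0.923. The other 8 enzymes lay between -0.28 and -0.03. Scaling each library to a fixed total moved the median of all genes in this contrast by 0.129, so values relative to the median are the comparable ones: for Hk2 this was 0.49 under the deposited scale and 0.50 under the fixed total, and for Eno3 -0.37 and -0.36.

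The fast glycolytic fibre markers Myh4, Actn3, Pvalb, Mylpf and Tnni2 are given beside the enzymes. Their sum lay between 37041 and 40180 FPKM in knockout libraries after exercise, against 44523 to 47239 FPKM in wild type, with 0 of the 5 called by either test and Tnni2 at a log2 difference of -0.53 (limma adjusted p of 0.0600). As a share of all FPKM this was 8.01% to 8.17% in knockout libraries after exercise, against 8.99% to 9.19% in wild type. At rest their sum lay between 36257 and 47114 FPKM in knockout libraries, against 37737 to 43327 FPKM in wild type. The leukocyte markers Ptprc, Cd68, S100a8 and S100a9 summed to between 7.53 and 311 FPKM in knockout libraries after exercise, against 2.80 to 13.8 FPKM in wild type, and Cd68 rose there by 1.48 on the log2 scale (limma adjusted p of 0.0372), a call that held in 2 of 6 fits without 1 library and in 8 of 9 other settings. At rest their sum lay between 6.66 and 13.9 FPKM in knockout libraries, against 8.48 to 467 FPKM in wild type. Cd68 was low, at 5.27, 2.60 and 4.91 FPKM in knockout libraries after exercise, against 1.49, 0.746 and 0.428 FPKM in wild type. Its log2 difference at rest was 0.33 (limma adjusted p of 0.515). The contrast between conditions did not call Cd68 (limma adjusted p of 0.923). The part of these markers in the enzyme values was not tested. In whole muscle, fewer cells of a type and less RNA per cell cannot be told apart.

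The libraries of a group did not vary alike for all enzymes. At rest knockout library 2 was the highest of the 6 for 8 of the 10 genes, and wild-type library 1 was the lowest for 7. After exercise knockout library 3 was highest for 3 genes and wild-type library 2 for 4. The median coefficient of variation over the 10 genes was 11.8% in knockout libraries after exercise, 6.50% in wild type after exercise, 8.72% in knockout libraries at rest and 11.996% in wild type at rest. Hk2 in knockout muscle after exercise had the widest spread, 42.9%.

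**Figure D3:**
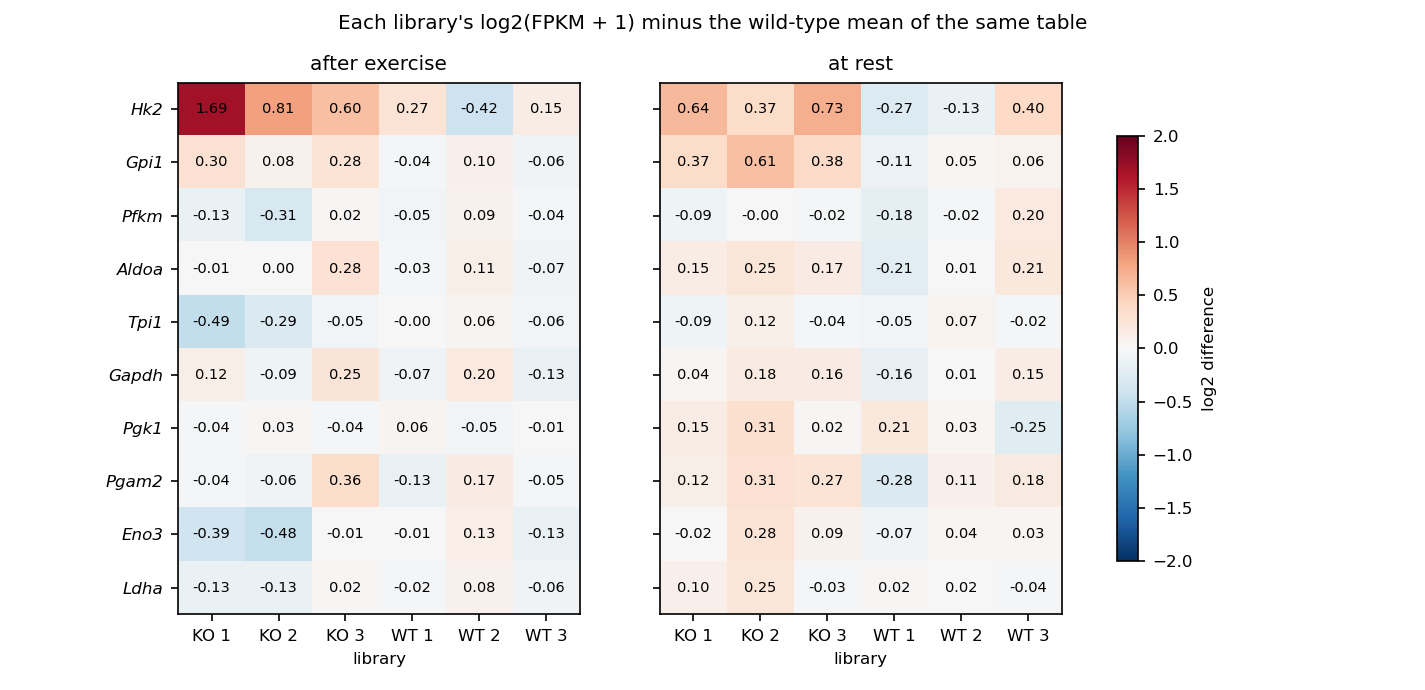
Each library's log2(FPKM + 1) minus the mean of the 3 wild-type libraries of the same condition, for the 10 enzyme genes (rows) and 6 libraries per condition (columns, knockout then wild type). Hk2 stands out in knockout library 1 after exercise at 1.69, and at rest knockout library 2 is above the wild-type mean for 9 of 10 genes.

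The order of transcript levels was nearly the same in the 4 groups. Aldoa was highest everywhere, and over all genes it held rank 9 by mean FPKM in both tables. Eno3 and Gapdh followed, and only in knockout muscle after exercise did the ranges of this pair overlap. Pgam2 and Ldha came next with overlapping ranges in every group, then Tpi1 and Pfkm, which also overlapped in every group. Pgk1 and Gpi1 followed, and Hk2 was lowest in each group, at rank 450 after exercise and rank 564 at rest. Gpi1 and Hk2 overlapped in knockout muscle after exercise and in no other group.

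Summed over the 10 enzymes, the level was 22038 ± 2612 FPKM in knockout muscle after exercise and 22212 ± 1623 FPKM in wild type (SD, n = 3 each). At rest the sum was 22489 ± 1231 FPKM in knockout muscle and 20369 ± 1901 FPKM in wild type (SD, n = 3 each). These sums made up 4.62% of all FPKM in knockout muscle after exercise, against 4.37% in wild type, and 4.65% in knockout muscle at rest, against 4.35% in wild type. The ranges of the groups overlapped in both conditions. Aldoa alone gave between 38.3% and 43.0% of the sum.

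**Figure D4:**
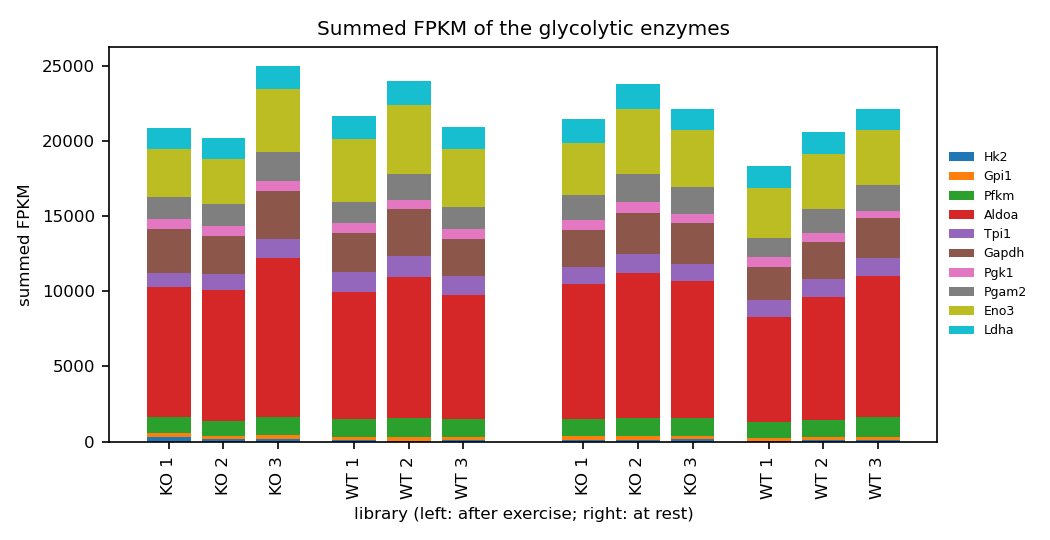
Summed FPKM of the 10 enzyme genes per library, stacked by gene, for knockout and wild type after exercise and at rest. The sums run from 20225 to 25032 in knockout and 20934 to 24038 in wild type after exercise, and from 21459 to 23852 in knockout and 18356 to 22134 in wild type at rest, with Aldoa the largest block in every library.

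Running and rest stood in tables normalized separately, so levels across them are given without a test. Hk2 averaged 1.57 times its resting level after running in knockout muscle and 1.09 times in wild type, with overlapping libraries in both genotypes. In wild type, the running libraries lay above all resting libraries for Gpi1 at 1.18 times, Tpi1 at 1.14 times and Eno3 at 1.19 times, a separation found in 7.54% of all genes, beside 8.19% with running below rest. In knockout muscle the running and resting libraries of all 10 enzymes overlapped, and over all genes 5.87% lay above rest and 10% below it. The median log2 ratio of running to rest over all genes was -0.02 in knockout muscle and -0.00 in wild type.

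The enzymes of this list were the main isoforms in this tissue. Pfkm made up between 99.5% and 99.7% of the FPKM of the phosphofructokinase genes, Eno3 between 99.5% and 99.9% of the enolases, Pgam2 between 98.5% and 99.6% of the mutases and Ldha between 94.3% and 97.4% of the lactate dehydrogenase genes. Aldoc, Gapdhs and Pgk2 were at or near 0, with none above 0.387 FPKM. Hk1 did not exceed 1.97 FPKM, Hk3 did not exceed 0.871 FPKM and Hkdc1 was at 0 in all 12 libraries. Pfkl and Pfkp stayed at or below 3.40 FPKM. Pgam1 lay between 8.38 and 21.0 FPKM, Eno1 between 4.30 and 17.4 FPKM, Eno2 at or below 0.683 FPKM and Ldhb between 37.1 and 95.1 FPKM.

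Of the 13 isoform partners followed, 5 were tested after exercise, where limma called 0, with 1 under an unadjusted p of 0.05, and the authors' table called Pfkl as lower. Pfkl, the liver-type phosphofructokinase, had a log2 difference of -0.54 with a limma adjusted p of 0.237. At rest 4 were tested, and neither limma, at the adjusted or the unadjusted threshold, nor the authors' table called any of them. Genes called by both tests made up 3.43% of all tested genes after exercise, with 2.04% lower, and 4.27% at rest, with 1.53% lower. Beside a median over all tested genes of -0.00 after exercise and 0.01 at rest, the median log2 difference of the tested partners was -0.13 after exercise and 0.07 at rest.

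Other enzymes of the pathway and its branches gave no gene that passed both tests, among 12 tested after exercise and 11 tested at rest, and limma gave 2 an unadjusted p under 0.05 in each condition. Their median log2 difference was -0.06 after exercise and -0.04 at rest. Pkm, whose product makes pyruvate, had 1375, 1356 and 2045 FPKM in knockout libraries after exercise, against 1417, 1477 and 1239 FPKM in wild type. At rest Pkm had 1556, 1919 and 1663 FPKM in knockout libraries, against 1125, 1330.2 and 1460.4 FPKM in wild type. All knockout libraries were higher, as for 15.6% of all genes tested at rest, and the log2 difference was 0.39 (limma adjusted p of 0.160). Phosphoglucomutase Pgm2, which links glycogen to glycolysis, averaged a log2 difference of -0.24 after exercise and -0.23 at rest. The authors' table called Taldo1 of the pentose phosphate pathway lower after exercise, with a log2 difference of -0.53 and a limma adjusted p of 0.0806. It called Gpd2 of the glycerol phosphate shuttle higher at rest, with a log2 difference of 0.47 and a limma adjusted p of 0.0875. The authors' table called 9.57% of all tested genes after exercise and 10.8% at rest, and limma's unadjusted threshold took in 19.9% and 21.5%. Taldo1 and Gpd2 were named after their values were seen.

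Among 10 tested genes for glucose, lactate and pyruvate transport, 0 passed both tests after exercise and 1 at rest, with 3 and 4 under limma's unadjusted threshold. Their median log2 difference was -0.00 after exercise and 0.14 at rest. After exercise the authors' table called Slc2a1 and Slc16a1 higher and Slc2a3 lower, and at rest it called Slc16a1 and Mpc1 higher and Slc2a3 and Slc16a3 lower. Among all tested genes, the authors' table called 9.57% after exercise and 10.8% at rest, and 19.9% and 21.5% were under limma's unadjusted threshold. The shares passing both tests were 3.43% and 4.27%. The gene that passed both was Slc2a3, the glucose transporter GLUT3, with 0.899, 1.17 and 1.26 FPKM in knockout libraries at rest, against 2.76, 3.42 and 3.86 FPKM in wild type. All knockout libraries lay below all wild-type libraries, as for 12.4% of all genes tested at rest. Slc2a3 fell by 1.04 on the log2 scale (SE 0.16, n = 3 each; limma adjusted p of 0.0189). The call held in 2 of 6 fits that left out a library, and went up to a limma adjusted p of 0.0829 without wild-type library 2. It held in 7 of 9 other settings. The main insulin-responsive transporter of muscle, Slc2a4, had log2 differences of 0.07 after exercise and 0.14 at rest, with limma adjusted p of 0.815 and 0.521. The lactate transporter Slc16a1 had 78.5, 70.4 and 59.3 FPKM in knockout libraries after exercise, against 51.3, 25.9 and 36.9 FPKM in wild type, with a log2 difference of 0.89, a limma adjusted p of 0.0835 and a q of 0.00132 in the authors' deposited table. At rest Slc16a1 had 66.6, 40.2 and 50.8 FPKM in knockout libraries, against 29.5, 34.6 and 38.8 FPKM in wild type. All its knockout libraries exceeded the wild-type ones in both conditions, as for 12.4% of all tested genes after exercise and 15.6% at rest. Apart from Slc2a3, these transporters were named after their values were seen.

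Of the transcription factors and oxygen sensors linked to glycolytic genes, 18 were tested after exercise and 17 at rest. Both tests called 0 of them after exercise and 1 at rest, with 7 and 4 under limma's unadjusted threshold. Their median log2 difference was 0.01 after exercise and -0.03 at rest. After exercise the authors' table called Mlxip higher and Mlxipl, Eya1 and Nr4a1 lower, and at rest it called Egln3 higher and Mlxipl and Eya1 lower. Over all tested genes, both tests called 3.43% after exercise and 4.27% at rest, and the authors' table called 9.57% and 10.8%. The unadjusted threshold took in 19.9% and 21.5%. Eya1, a transcriptional coactivator with a role in muscle development, had 3.99, 3.61 and 3.49 FPKM in knockout libraries at rest, against 7.15, 8.45 and 10.1 FPKM in wild type. At rest Eya1 fell by 1.02 on the log2 scale (SE 0.14, n = 3 each; limma adjusted p of 0.0154), and the call held in 3 of 6 fits without 1 library, with a limma adjusted p of 0.0754 without wild-type library 2, and in 8 of 9 other settings. After exercise all knockout libraries also lay below all wild-type libraries for Eya1, as for 13.7% of all tested genes. Its log2 difference was then -0.86, with a limma adjusted p of 0.111 and a q of 0.00132 in the authors' deposited table. Hif1a, the oxygen-regulated activator of glycolytic genes, had log2 differences of 0.18 after exercise and 0.32 at rest, with limma adjusted p of 0.470 and 0.272. Hif1a and the genes called by the authors' table alone were named after their values were seen.

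The promoters of Hk2 and Gpi1 are shown because these enzymes had the lowest limma p of the 10. Each runs from 250 bases before to 50 bases after the gene's start, from RefSeq on build GRCm38.p6, which is not the mm9 build of the deposited values. Hk2 lies on the minus strand at chr6:82774405-82774704 and Gpi1 on the minus strand at chr7:34230287-34230586. Capitals mark ACGTG, the core that HIF1 binds, GCGTG, its variant, and GGGCGG, the Sp1 box, on either strand.
Hk2: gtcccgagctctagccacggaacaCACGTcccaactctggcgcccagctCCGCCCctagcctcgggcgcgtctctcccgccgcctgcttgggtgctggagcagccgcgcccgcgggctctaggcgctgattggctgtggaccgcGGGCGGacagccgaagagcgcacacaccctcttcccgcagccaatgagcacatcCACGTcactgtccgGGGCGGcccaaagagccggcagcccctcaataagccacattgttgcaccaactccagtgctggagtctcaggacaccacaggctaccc
Gpi1: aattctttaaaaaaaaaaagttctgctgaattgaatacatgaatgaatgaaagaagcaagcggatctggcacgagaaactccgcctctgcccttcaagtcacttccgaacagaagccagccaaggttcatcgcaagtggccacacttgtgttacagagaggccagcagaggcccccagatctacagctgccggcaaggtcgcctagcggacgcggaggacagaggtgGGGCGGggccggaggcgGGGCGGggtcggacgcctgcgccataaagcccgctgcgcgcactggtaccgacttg

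The Hk2 window held 2 copies of ACGTG and 3 of GGGCGG, and the Gpi1 window 2 copies of GGGCGG and none of ACGTG or GCGTG. All 10 enzymes had entries in the promoter table, with 16 windows in all. ACGTG on either strand was found for 6 of the 10 genes, in 8 of their 16 windows, and in 19.6% of all 32851 windows of the same length. GCGTG was found for 4 genes, in 6 of the 16 windows, and in 32.4% of all windows. GGGCGG was found for 6 of the 10 genes, in 7 of the 16 windows, and in 35.7% of all windows. CACGTG, which contains ACGTG and is bound by MYC and MLX factors, was found for Ldha and Pfkm and in 7.15% of all windows. TATAAA was in none of the members' windows and in 13.6% of all windows. These are matches of letters in a window, and some genes have several windows, which raises their chance of a match. Some windows of Aldoa and of Pfkm overlap, so the same site can be counted in more than one of them.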

How the data were processed

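RNA-seq of mouse quadriceps was deposited by the authors as 2 tables of gene values, 1 per condition, holding FPKM for each library beside group means. FPKM and the deposited p-value and q-value rest on the mm9 build, and the submitters' processing notes name Cuffdiff, TopHat2, HOMER and Bowtie. Their versions and settings are not given in the sources used here. No sample column was left unmatched. The 27 gene names that a spreadsheet had turned into dates in the exercise table were left out, and the 4 GRO-seq libraries were not analysed here.

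Genes the authors tested (p under 1; 9204 at rest and 9037 after exercise) were fitted within each table by two-sided moderated tests of limma 3.58.1 (R 4.3.3), with log2(FPKM + 1) as the response, a trended prior variance and Benjamini-Hochberg adjustment over all of them. The scale understates changes of low genes. The contrast between conditions used the 8854 genes tested in both. The steps were tested on simulated data.

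Low FPKM values under 0.5 spaced in whole reads gave relative depths of 1 to 1.61; absolute depth is unknown, so no counting interval is given. Pearson r of log2 values was 0.969 to 0.985 within groups and 0.965 to 0.978 between genotypes. Over 8946 genes, library pairs had at most 1 value in common, and each library counted once.

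The 10 members and the lists of partners, branches, transporters, factors and cell markers were chosen with earlier results of these data known. Other genes were named where both tests called them, as isoform partners, as Pkm, or else as the 2 of highest FPKM in a list; exceptions are stated. Some genes of these lists are not reported here. Alternatives were another pseudocount, filter, scaling, a fit without trend, a joint fit, a replicate block and each library left out.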

Additional observations from a re-analysis of the deposited data

How the results depend on the processing

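Direction and side of the threshold held for 243 values of single enzymes under other settings, while 5 changed sign and 2 newly passed; with a library left out 228 held, 11 changed sign and 1 newly passed. With a fixed total per library, the log2 differences after exercise turned to 0.079 for Pgk1 and 0.015 for Ldha, and the contrast between conditions turned to 0.036 for Pfkm, 0.042 for Aldoa and 0.11 for Gapdh. The median over all genes then stood at 0.087 after exercise and 0.092 in the contrast. Relative to the median, the contrast kept its sign for these 3 genes. It went from -0.069 to -0.057 for Pfkm, from -0.063 to -0.050 for Aldoa and from 0.003 to 0.015 for Gapdh under the fixed total. That scaling split the limma calls into 172 higher and 105 lower after exercise, against 143 and 194 on the deposited scale, and into 200 and 168 at rest, against 280 and 154. It gave sums over the 10 enzymes of 46249 in knockout and 43740 in wild type after exercise, and 46466 in knockout and 43454 in wild type at rest. With libraries left out, values that changed sign ranged at rest from -0.067 to 0.039 for Tpi1 and from -0.13 to 0.063 for Pfkm, after exercise from -0.0065 to 0.14 for Aldoa, from -0.054 to 0.17 for Pgam2 and from -0.043 to 0.014 for Pgk1, and in the contrast from -0.11 to 0.066 for Gapdh and from -0.20 to 0.0071 for Aldoa. A joint fit of 12 libraries called 1 enzyme in each condition, Hk2 after exercise (limma adjusted p of 0.0479) and Gpi1 at rest (0.0229). Over all genes limma called 337 after exercise and 434 at rest; the joint fit called 592 and 678, no filter on low values 109 and 247, and leaving out a library 70 to 103 and 20 to 292. Leaving out a library called 0 to 1 of the enzymes at rest (Hk2 without wild-type library 3) and 0 to 1 genes in the contrast. The authors' q at 0.01 called 492 genes after exercise and 605 at rest, against 865 and 998 at 0.05. Deviations of same-numbered libraries of the genotypes from their group means had r of 0.03, -0.33 and -0.18 after exercise. At rest these were -0.00, 0.05 and 0.05. Differently numbered libraries ranged from -0.14 to 0.36 after exercise and from -0.13 to 0.08 at rest. With 3 libraries a group, these values cannot decide whether the numbers pair the libraries. A replicate block called 170 genes after exercise, 52 at rest and 0 in the contrast. Under the block the resting calls of Slc2a3 (limma adjusted p of 0.0577) and Eya1 (0.0579) and the exercise call of Des (0.0886) were lost; with no filter on low values the resting call of Des (0.0632) and the exercise call of Cd68 (0.0813) were lost. The causes of these changes were not tested.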

Other observations

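The genes whose profile over the 12 libraries lay nearest to the mean of the 10 enzymes, each centred within its condition, were Gart, Tom1, Akt2, Med24 and Ndufs6. Their root-mean-square differences from that mean were 0.05 to 0.07 on the log2 scale, against a median of 0.21 over the 3858 genes compared. Among the enzymes, Aldoa lay nearest to the mean of the other 9 at 0.07, and Hk2 lay farthest at 0.55. Promoter GC content ranged from 36.7% to 67.3% over the members' windows, beside a median of 52.7% over all windows. Apart from the Pfkm window at 36.7%, every window of the members lay at or above that median. Whether GC content bears on the motif matches given above was not tested.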
